A study of Rattus norvegicus with 19 samples.

Results

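The coagulation genes described here are F2, F5, F7, F9, F10, F11, F12, Serpinc1, Plg and Proc, measured in rat liver under 3 diets. They were chosen by gene symbol, and every non-control probe named for one of them was taken. This gave 13 probes for 10 genes, out of 41012 non-control probes on the array. F5, F12 and Serpinc1 had 2 probes each and the other genes had 1. A probe was kept if 6 or more of the 19 arrays showed it well above background in the rat's channel. Of the 13 probes 12 were kept, each well above background on all 19 arrays, and none was saturated. The second Serpinc1 probe was not well above background on any array.

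Each of the 19 arrays carried liver RNA of 1 male Wistar rat in Cy5 and a pool made from equal amounts of liver RNA in Cy3. The high protein (HP) diet, fed to 6 rats, drew 45% of energy from carbohydrate, 10% from fat and 45% from protein, mostly casein. The high fat (HF) diet, also fed to 6 rats, drew 20% from carbohydrate, 60% from fat and 20% from protein. The Control diet of 7 rats was low in fat and drew 70% from carbohydrate, 10% from fat and 20% from protein. All rats were wild type, began their diet at 8 weeks of age and ate it for 4 months before they were killed in the fed state. The HP and HF diets both held less carbohydrate than the Control diet, so a change in one nutrient always came with a change in another. Every value below is a log2 ratio of a rat's liver to the pool, or a difference between such ratios. No dyes were swapped, so the position of a gene above or below 0 carries any dye bias of its probe, and only differences between rats are read.

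Hepatocytes make most circulating clotting factors as inactive precursors of serine proteases. Factor XII, factor XI and factor IX form the contact or intrinsic arm, and factor VII with tissue factor forms the extrinsic arm. Both arms converge on factor X, which with its cofactor factor V turns prothrombin, the product of F2, into thrombin. Antithrombin, the product of Serpinc1, inhibits thrombin and factor Xa, and activated protein C, the product of Proc, inactivates factor V. Plasminogen, the product of Plg, is the precursor of the protease that dissolves fibrin. Factors II, VII, IX and X and protein C must be carboxylated with the help of vitamin K to bind calcium. In bulk liver RNA, fewer cells of a type and less RNA per cell cannot be told apart, and the arrays measure RNA, not clotting activity.

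The 250 bases before the start sites of F9, F5 and Serpinc1 are shown because these genes had the smallest p values between the HP and HF diets. The sequences are those of RefSeq on the GRCr8 build, written 5′ to 3′ on the strand of the gene, and capitals mark matches to the C/EBP motif TTGCNNAA.
F9 (chrX:143388392-143388641, plus strand): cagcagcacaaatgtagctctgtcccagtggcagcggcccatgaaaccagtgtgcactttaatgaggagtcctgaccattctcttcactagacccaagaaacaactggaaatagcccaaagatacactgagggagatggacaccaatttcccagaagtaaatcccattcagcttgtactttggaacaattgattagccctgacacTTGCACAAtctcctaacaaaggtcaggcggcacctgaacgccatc
F5 (chr13:79046407-79046656, plus strand): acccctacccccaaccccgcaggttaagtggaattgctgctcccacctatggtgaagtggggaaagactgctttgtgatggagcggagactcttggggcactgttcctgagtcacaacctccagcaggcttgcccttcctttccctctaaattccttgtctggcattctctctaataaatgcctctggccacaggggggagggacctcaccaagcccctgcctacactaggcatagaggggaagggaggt
Serpinc1 (chr13:75790308-75790557, plus strand): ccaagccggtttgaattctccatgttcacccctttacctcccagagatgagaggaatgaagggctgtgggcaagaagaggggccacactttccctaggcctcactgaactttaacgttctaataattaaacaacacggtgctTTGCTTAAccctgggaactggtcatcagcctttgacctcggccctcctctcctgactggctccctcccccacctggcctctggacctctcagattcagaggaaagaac

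Motifs of liver transcription factors were searched on both strands in windows of 300 bases, 250 before and 50 after the start site, which all 10 genes had in RefSeq. The C/EBP motif stood in the windows of F9, 45 bases before the start site, and of Serpinc1, 108 bases before it, against 10.6% of 33469 windows of all genes. The FOXA motif TGTTTAC stood on the opposite strand in the windows of F11, 70 bases before the start site, and F12, 206 bases before it, against 3.78% of all windows. The HNF4 core CAAAGTCC was in none of the 10 windows and in 1.40% of all, and the full HNF1 palindrome was in none of the 10 and in 0.00299% of all. Start sites are those RefSeq gives. In F9 the letters right after it begin with ATG, so its distance may run to a start codon and not to a transcription start. A match describes letters and not a bound factor.

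The 6 hepatocyte markers were well above background on all 19 arrays. One array stood apart, Control 6, whose log ratios had a standard deviation (SD) of 0.45, against 0.20 to 0.29 on the other 18 arrays. In Control 6 the median log2 ratio was 2.72 over the 6 measured lymphocyte markers of 15 and 2.79 over the 4 measured platelet markers of 5. On the other 18 arrays these medians lay between -1.27 and -0.95 and between -1.74 and -1.24. The hepatocyte marker median of Control 6, 0.12, lay within the range of the others, 0.07 to 0.38. Of the markers of 8 cell types, limma called Rgs5 (stellate cells) higher by 0.45 in HP and by 0.60 in HF livers against Control livers (adjusted p 0.024 and 0.00035). Between HP and HF livers it called Ttr (hepatocytes) at 0.33 and Lyz2 (macrophages) at 0.77 (adjusted p 0.0028 and 0.036). The other markers of these lists did not all go the same way. Of the measured stellate markers 3 of 5 were above 0 in each comparison with Control livers. In HP against HF livers 3 of 6 hepatocyte and 3 of 8 macrophage markers were above 0, with medians of 0.04 and -0.02. Whether these marker differences had a part in the differences below was not tested. The arrays lay on 5 slides, each scanned on its own, and 1 slide held both HP and HF arrays.

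Differences were tested with limma over 22088 features (named genes or unnamed probes), two-sided, and a gene was called at a Benjamini-Hochberg adjusted p under 0.05. In HP against Control livers 0 of the 10 genes were called, where 0.407% of all features were called, and 3 had an unadjusted p under 0.05, which 14.2% of all features had. In HF against Control livers 1 of 10 was called, F5, where 3.64% of all features were called, and 2 had an unadjusted p under 0.05, which 15.8% of all features had. In HP against HF livers 2 of 10 were called, F9 and F5, where 7.01% of all features were called, and 6 had an unadjusted p under 0.05, which 19.9% of all features had. The shares over all features are the background for these counts, and no test of the 10 genes as a list was made. The genes went in both directions in each comparison. In HP against Control livers 5 were higher and 5 lower, in HF against Control livers 6 higher and 4 lower, and in HP against HF livers 5 higher and 5 lower. Over all features 46.4%, 46.9% and 48.8% were higher in these comparisons. Their median differences were 0.03, 0.04 and -0.04 in these 3 comparisons, and the medians over all features were -0.01, -0.01 and 0.00. The comparisons share samples, so their results are not independent of each other.

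**Figure D1:**
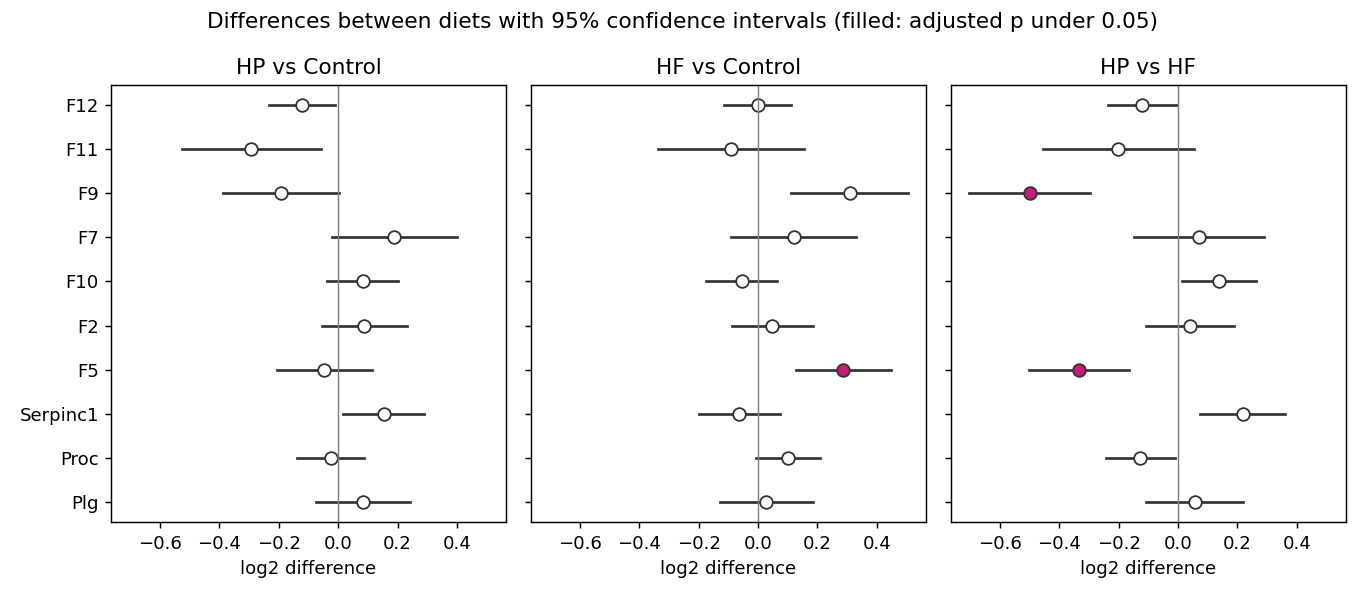
Log2 difference of each of the 10 genes (brightest probe, x axis) in the 3 diet comparisons, with 95% confidence intervals from limma; filled points have an adjusted p under 0.05. F5 was called between HF and Control livers and F9 and F5 between HP and HF livers, and no gene was called between HP and Control livers.

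Factor IX, the vitamin K dependent protease whose loss causes haemophilia B in people, had the largest difference of the 10 genes. The F9 probe lies at chrX:145575130-145575189 on the plus strand of rn4, the build of the array files; no annotation of that build was used, so exons are not given for any probe. In HP livers its log2 ratio had a lowest value of -0.51, a median of -0.28 and a highest value of 0.03. In HF livers the lowest was 0.00, the median 0.24 and the highest 0.42, and in Control livers -0.33, -0.02 and 0.08. The Control median lay between those of the other diets, and Control livers overlapped both. Of the 6 HF livers 5 lay above every HP and every Control liver. F9 was lower in HP than in HF livers by a log2 difference of -0.50 ± 0.10 (SE), 0.707-fold, with an adjusted p of 0.0033 by limma. HP and HF livers overlapped through 1 rat of each diet, HP 1 and HF 1, which lay on the same slide. Against Control livers F9 differed by -0.19 ± 0.09 in HP livers (adjusted p 0.36) and by 0.31 ± 0.09 in HF livers (adjusted p 0.079), and limma called neither.

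The slides touch the F9 result. On slide 4, which alone held both diets, the 2 HP livers differed from the 1 HF liver by -0.25. With slide as a fixed block the difference between HP and HF livers was -0.40 with an adjusted p of 0.22, and F9 was no longer called. On slides 1, 3 and 4 HF livers differed from Control livers by 0.27, 0.49 and -0.06. On slides 2, 4 and 5 HP livers differed from Control livers by -0.24, -0.31 and 0.05. Without HF 1 the difference between HF and Control livers was 0.36 and passed (adjusted p 0.044 by limma), and without Control 6, the lowest Control liver, it was 0.26 (adjusted p 0.13).

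Factor V, the cofactor of factor Xa, was higher in HF livers. Its brightest probe, at chr13:79992808-79992867 on the plus strand of rn4, had a lowest log2 ratio of -0.15, a median of -0.10 and a highest of 0.02 in HP livers. In HF livers these values were 0.08, 0.25 and 0.48, and in Control livers -0.32, -0.09 and 0.26. All HF livers lay above all HP livers, and Control livers overlapped both. F5 was lower in HP than in HF livers by -0.33 ± 0.08, 0.793-fold (adjusted p 0.014 by limma), where 2.25% of all features were lower without overlap. It was higher in HF than in Control livers by 0.29 ± 0.08, 1.22-fold (adjusted p 0.043 by limma). HP and Control livers differed by -0.05 ± 0.08 with a 95% confidence interval from -0.21 to 0.12, and by 0.0016 without Control 6. Without Control 6, which had the highest F5 value of the Control livers, the difference between HF and Control livers was 0.34 (adjusted p 0.0073 by limma).

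The call of F5 between HF and Control livers rested on a narrow margin. It was lost on leaving out any 1 of 13 of the 19 rats, with adjusted p values up to 0.11, although the difference stayed between 0.24 and 0.34. Within slides 1, 3 and 4 HF livers lay above Control livers by 0.36, 0.45 and 0.17, and on slide 4 HP livers lay 0.23 below the HF liver (difference -0.23). With slide as a fixed block F5 was still called between HP and HF livers (-0.44, adjusted p 0.044) but not between HF and Control livers (0.32, adjusted p 0.061).

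The second F5 probe, at chr13:79966906-79966965 on the plus strand of rn4, did not show these differences. Its mean log2 ratio was 0.13 ± 0.08 in HP livers, 0.13 ± 0.12 in HF livers and 0.16 ± 0.07 in Control livers (SD, n = 6, 6 and 7). Its differences were -0.03 ± 0.06 for HP against Control, -0.02 ± 0.06 for HF against Control and 0.00 ± 0.06 for HP against HF livers (SE). This probe was dim, with Cy5 signals between 97.4 and 213, where the brightest F5 probe gave 2128 to 4311. Over 19 arrays the log ratios of the 2 probes had a Pearson r of 0.18. The call between HP and HF livers was also lost with Cy5 alone (-0.28, adjusted p 0.082) and with median centring in place of loess (-0.29, adjusted p 0.095). With the mean of both probes in place of the brightest, F5 was called in neither comparison (-0.17, adjusted p 0.092 for HP against HF livers, and 0.13, adjusted p 0.25 for HF against Control livers).

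**Figure D2:**
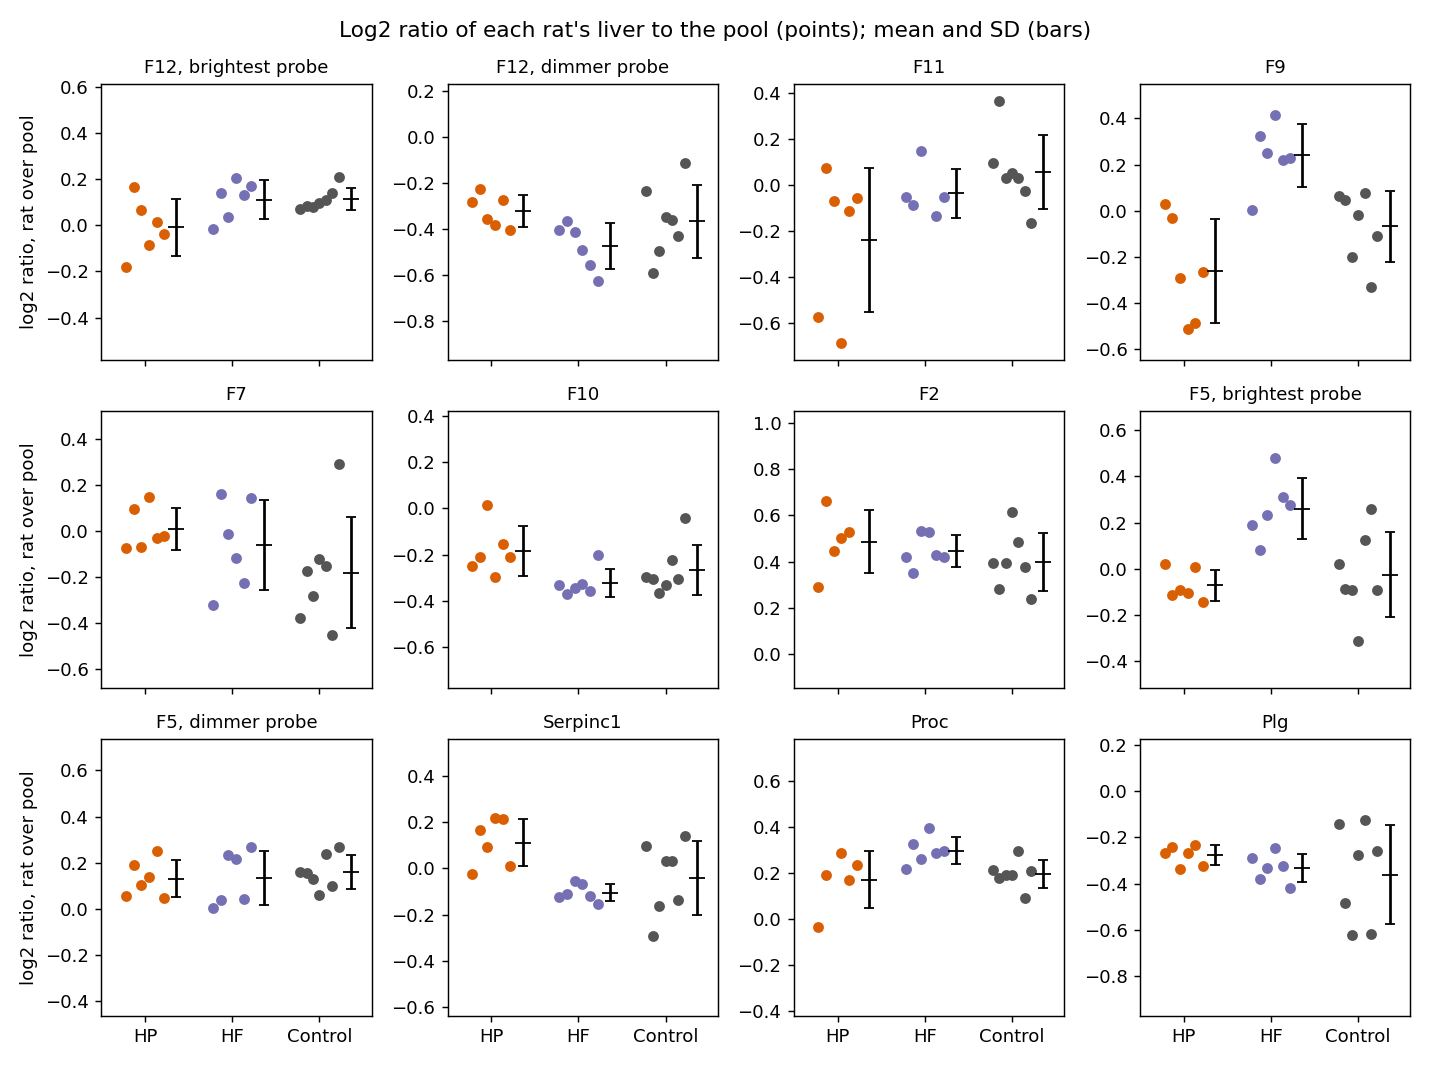
Log2 ratio of each rat's liver to the pool (y axis, points) for the 12 kept probes, by diet, with the mean and SD beside each group (n = 6 HP, 6 HF and 7 Control, less the 3 outlier spots left out); panels share a y range of the same height. In F9 all but 1 HF liver lie above the HP livers, in the brightest F5 probe the 6 HF livers lie above the 6 HP livers, and the dimmer F5 probe shows no such order.

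Factor XII starts the contact pathway, and its 2 probes disagreed. The brightest, at chr17:15259523-15259582 on the plus strand of rn4, had a lowest log2 ratio of -0.18, a median of -0.01 and a highest of 0.17 in HP livers. The values were -0.01, 0.14 and 0.21 in HF livers and 0.07, 0.10 and 0.21 in Control livers. The Control livers were tightly grouped, and 5 of 6 HP livers lay below all of them. The difference was -0.12 ± 0.05 both for HP against Control livers (adjusted p 0.31) and, ± 0.06, for HP against HF livers (adjusted p 0.23 by limma). The other probe, spanning chr17:15255815-15255993 on the plus strand of rn4, gave 0.05 ± 0.07 and 0.15 ± 0.07 for the same comparisons, with adjusted p values of 0.78 and 0.22 over all kept probes. Between HP and HF livers the 2 probes gave differences of opposite sign, and their log ratios had a Pearson r of -0.11 over 19 arrays.

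Factor XI, which is cut by factor XIIa or thrombin and then activates factor IX, varied most among the HP livers. Its probe lies at chr16:50295931-50295990 on the plus strand of rn4. In HP livers the log2 ratios of the 6 rats were -0.57, 0.07, -0.07, -0.69, -0.11 and -0.06. In HF livers they lay between -0.14 and 0.15 with a median of -0.05 (5 rats, since the spot of HF 4 was an outlier), and in Control livers between -0.16 and 0.37 with a median of 0.03. Only HP 1 and HP 4 stood below the range of the Control livers. Both were on slide 4, where the Control liver was 0.09 and the HF liver -0.05. The difference between HP and Control livers was -0.29 ± 0.11 (adjusted p 0.24 by limma). It was -0.72 on slide 4 but 0.05 and -0.04 on slides 2 and 5.

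Factor VII, the protease that tissue factor activates, lies next to F10 on chromosome 16, with 0 protein-coding genes between them in RefSeq's GRCr8 table. The F7 probe, spanning chr16:81350761-81351870 on the minus strand of rn4, had a mean log2 ratio of 0.01 ± 0.09 in HP livers, -0.06 ± 0.19 in HF livers and -0.18 ± 0.24 in Control livers (SD). HP against Control livers differed by 0.19 ± 0.10 (SE, adjusted p 0.41 by limma), with a 95% confidence interval from -0.02 to 0.40. Control livers spread from -0.45 to 0.29 and overlapped both other diets. HF against Control livers differed by 0.12 ± 0.10. Without Control 6, the lowest Control liver, the differences from Control were 0.14 in HP and 0.07 in HF livers.

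Factor X, which both arms activate, was measured by a probe at chr16:81327721-81327780 on the minus strand of rn4. Its mean was -0.19 ± 0.11 in HP livers, -0.32 ± 0.06 in HF livers and -0.27 ± 0.11 in Control livers (SD). The difference between HP and HF livers was 0.14 ± 0.06 (SE, adjusted p 0.19 by limma). The HF livers lay between -0.37 and -0.33 except HF 6 at -0.20, and HP 3, the highest HP liver, was at 0.01.

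Prothrombin RNA differed little. The F2 probe, at chr3:76005425-76005484 on the minus strand of rn4, averaged 0.49 ± 0.14 in HP livers (n = 5, since the spot of HP 6 was an outlier), 0.45 ± 0.07 in HF livers and 0.40 ± 0.13 in Control livers (SD). The differences were 0.09 ± 0.07 for HP against Control livers, 0.05 ± 0.06 for HF against Control livers and 0.04 ± 0.07 for HP against HF livers (SE). Their 95% confidence intervals ran from -0.06 to 0.23, from -0.09 to 0.18 and from -0.11 to 0.19, so a difference beyond 0.23 either way lay outside all of them.

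Antithrombin, which slows thrombin and factor Xa, passed the test in none of the 3 comparisons, although HP and HF livers did not overlap. The kept Serpinc1 probe has no position in the array files, and its log2 ratio had a lowest value of -0.02, a median of 0.13 and a highest of 0.22 in HP livers. HF livers gave -0.15, -0.12 and -0.05, and Control livers -0.29, 0.03 and 0.14. All HP livers lay above all HF livers, as 2.73% of all features did, while Control livers overlapped both. The difference between HP and HF livers, 0.22 ± 0.07 or 1.16-fold, missed the threshold with an adjusted p of 0.060 by limma. On leaving out Control 2, Control 6, Control 7 or HP 1 it passed, with adjusted p values of 0.033 to 0.048. It was 0.22 on slide 4 and 0.13 when slide was a fixed block (adjusted p 0.55). Between HP and Control livers it was 0.15 ± 0.07 (adjusted p 0.29), and between HF and Control livers -0.06 ± 0.07 (adjusted p 0.70). The other probe, at chr13:76567599-76567658 on the plus strand of rn4, had Cy5 signals of 36.1 to 52.5 and gave no usable value.

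**Figure D3:**
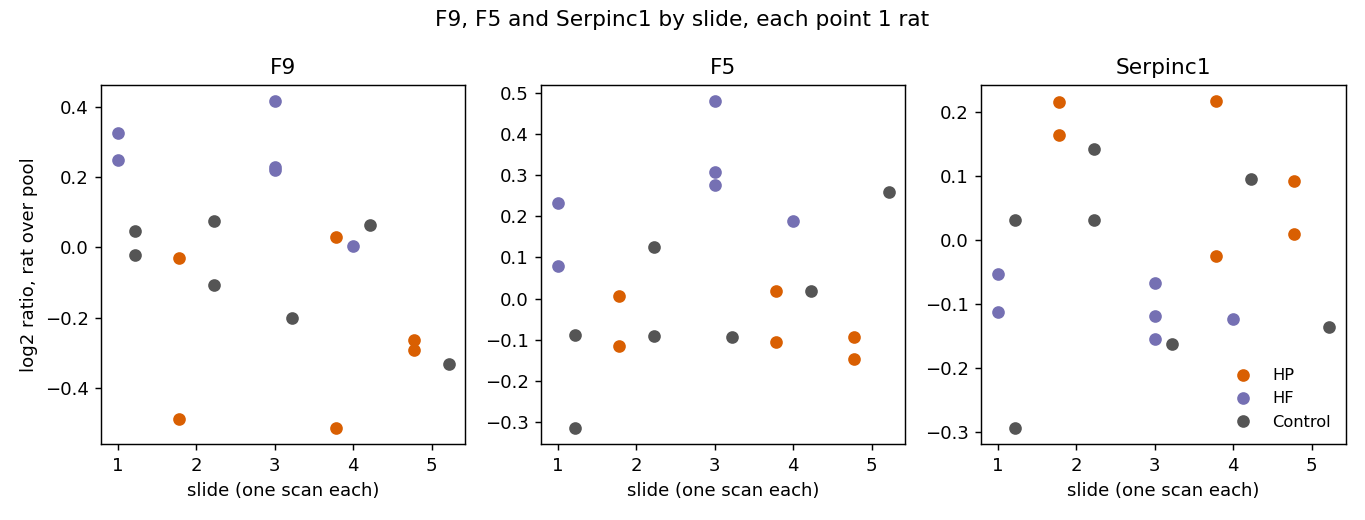
Log2 ratio to the pool (y axis) of F9, F5 (brightest probe) and Serpinc1 by slide (x axis), each point 1 rat, coloured by diet. HP and HF rats met only on slide 4, where the 2 HP livers averaged 0.25 below the HF liver in F9 and 0.23 below it in F5, and 0.22 above it in Serpinc1.

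Protein C, which in its active form cuts factor V, was measured at chr18:24563363-24563422 on the minus strand of rn4. Its mean was 0.17 ± 0.12 in HP livers (n = 5, since the spot of HP 3 was an outlier), 0.30 ± 0.06 in HF livers and 0.20 ± 0.06 in Control livers (SD). The difference between HP and HF livers was -0.13 ± 0.06 (SE, adjusted p 0.20 by limma), and HP 1, at -0.03, was the only liver below 0. Without HP 1 the difference was -0.08 (adjusted p 0.46), and with median centring in place of loess it was -0.0088 (adjusted p 0.98). HF against Control livers differed by 0.10 ± 0.05 (adjusted p 0.36 by limma).

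Plasminogen RNA had its widest spread among the Control livers. The Plg probe, spanning chr1:42798674-42799480 on the minus strand of rn4, averaged -0.28 ± 0.04 in HP livers, -0.33 ± 0.06 in HF livers and -0.36 ± 0.21 in Control livers (SD). All 12 HP and HF livers lay within the range of the Control livers, -0.62 to -0.12. The differences were 0.08 ± 0.08 for HP against Control livers, 0.03 ± 0.08 for HF against Control livers and 0.06 ± 0.08 for HP against HF livers (SE), and limma called none (adjusted p 0.64, 0.90 and 0.79). Without Control 6 the differences from Control were 0.04 in HP livers and -0.01 in HF livers.

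The 10 genes were also compared with each other from rat to rat after the diet means were removed. Of 45 pairs 30 had a Pearson r above 0, with a median of 0.14. By permutation of 100000 resamples, adjusted over the 45 pairs, 1 pair passed, Serpinc1 with Plg, with an r of 0.71 (p 0.00066, adjusted p 0.030) and a Spearman rho of 0.75 (p 0.00032, adjusted p 0.014) over 19 rats. Without Control 2 and Control 7, the rats farthest from the median of Serpinc1, r was 0.73, and with slide means removed too it was 0.54. No slide held more than 4 arrays, so r was not computed within slides. The SD of Plg was 0.21 in Control, 0.06 in HF and 0.04 in HP livers. For Serpinc1 it was 0.16, 0.04 and 0.10. The r of this pair over 19 rats thus rests largely on the Control livers. The permutation treated all 19 rats as exchangeable across diets. Neighbouring F7 and F10 had an r of 0.42 (permutation p 0.078, adjusted p 0.45) and a rho of 0.15 (permutation p 0.55, adjusted p 0.95). The r was 0.12 without Control 7 and HF 2. Other genes were compared with the median of the 10 without removing the diet means, so diet differences are part of these values. Of 11354 named genes outside the 10, the genes most like this median over 19 arrays were Bltp2, Tns1, Habp2, Sardh and Sulf2. Their Pearson r was 0.83, 0.81, 0.74, 0.73 and 0.73. These are the highest of 11354 values, and no chance level was computed for them.

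Other genes of clotting and fibrinolysis were counted from 7 lists with 47 genes, of which 44 were measured. In HP against Control livers 1 of the 44 rose and 0 fell, in HF against Control livers 0 rose and 1 fell, and in HP against HF livers 0 rose and 0 fell. Of all features 0.407%, 3.64% and 7.01% were called in these comparisons. At an unadjusted p under 0.05 there were 7, 12 and 9 of the 44 in these comparisons, where 14.2%, 15.8% and 19.9% of all features passed. The medians over the 44 genes were 0.01, -0.01 and 0.01.

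The 2 called genes belong to the list of the vitamin K cycle and propeptide removal, of which 6 of 6 were measured. Nqo1, a quinone reductase, rose in HP livers, where its log2 ratio had a lowest value of -0.19, a median of 0.33 and a highest of 0.54, against -0.51, -0.35 and 0.01 in Control livers. The difference was 0.63 ± 0.12 (adjusted p 0.032 by limma), and it was lost on leaving out any 1 of 7 rats, when slide was a fixed block (0.49, adjusted p 0.10) or with normexp fitted on every spot (0.54, adjusted p 0.079). With processed signals in place of the corrected ones it was 1.29 (adjusted p 0.040). Vkorc1, the enzyme that recycles vitamin K and the target of warfarin, fell in HF livers, with a lowest value of -0.85, a median of -0.48 and a highest of -0.16, against -0.38, -0.03 and 0.25 in Control livers. The difference was -0.48 ± 0.11 (adjusted p 0.015 by limma), and a second Vkorc1 probe gave -0.37 ± 0.10 (adjusted p 0.053 over all kept probes). It kept its call on leaving out each of the 19 rats in turn, but lost it with Cy5 alone (-0.32, adjusted p 0.068) and with the deposited log2 values (-0.42, adjusted p 0.084). Between HP and HF livers Vkorc1 differed by 0.32 ± 0.11 (adjusted p 0.092) and Furin, a protease that removes propeptides, by -0.22 ± 0.07 (adjusted p 0.060).

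The remaining 6 lists had no called gene. Of the other inhibitors of coagulation, all 8 measured, Serpina10 (protein Z dependent inhibitor) differed by 0.33 ± 0.08 and Tfpi (tissue factor pathway inhibitor) by -0.40 ± 0.11 between HP and Control livers, with adjusted p values of 0.085 and 0.11 by limma. Tfpi differed by -0.37 ± 0.11 between HF and Control livers (adjusted p 0.062), with Control livers between 0.06 and 0.81. A second Tfpi probe gave -0.03 ± 0.05 between HP and Control livers and -0.10 ± 0.05 between HF and Control livers (adjusted p 0.84 and 0.40 over all kept probes). In the list of fibrinogen and cross-linking, 4 of 5 measured, the medians were -0.18 for HP against Control livers, -0.16 for HF against Control livers and 0.01 for HP against HF livers. Its fibrinogen chain genes Fgg and Fga differed from Control by -0.22 ± 0.11 and -0.21 ± 0.11 in HP livers and by -0.27 ± 0.11 and -0.22 ± 0.11 in HF livers (adjusted p 0.21 to 0.38). For Fgg 6 of the 7 Control livers had a value, and its other probe gave -0.27 ± 0.08 in HP and -0.24 ± 0.08 in HF livers against Control livers (adjusted p 0.14 and 0.13 over all kept probes).

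Of the contact system, 5 of 5 measured, Klkb1 (prekallikrein) differed by -0.89 ± 0.35 and Kng1 (kininogen) by 0.46 ± 0.22 between HP and Control livers (adjusted p 0.24 and 0.34 by limma). In the list of cofactors, export and receptors, 7 of 7 measured, the median was 0.22 for HF against Control livers, where Thbd (thrombomodulin) differed by 0.31 ± 0.11 and F3 (tissue factor) by 0.24 ± 0.09 (adjusted p 0.17 and 0.16). Lman1, a receptor that carries factors V and VIII out of the endoplasmic reticulum, differed by -0.22 ± 0.08 between HP and HF livers (adjusted p 0.14; -0.18 ± 0.08 by its other probe), and Mcfd2, its partner, by 0.26 ± 0.10 between HP and Control livers (adjusted p 0.24). In fibrinolysis, 6 of 8 measured, Serpinf2 (antiplasmin) differed by 0.19 ± 0.06 between HF and Control livers (adjusted p 0.076 by limma), and its other probe gave 0.03 ± 0.06 (adjusted p 0.85 over all kept probes). Of the 8 hepatocyte transcription factors, all measured, 0 had an unadjusted p under 0.05 by the brightest probe in any of the 3 comparisons. Over all features 14.2%, 15.8% and 19.9% had one. Another Hnf4a probe gave -0.24 ± 0.09 between HP and Control livers (adjusted p 0.21 over all kept probes), where the brightest gave -0.05 ± 0.08. The 9 list genes with an unadjusted p under 0.05 between HP and HF livers were 5 of 6 in the vitamin K list and 4 of 7 in the cofactor list. Between HF and Control livers these lists held 3 of 6 and 4 of 7.

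**Figure D4:**
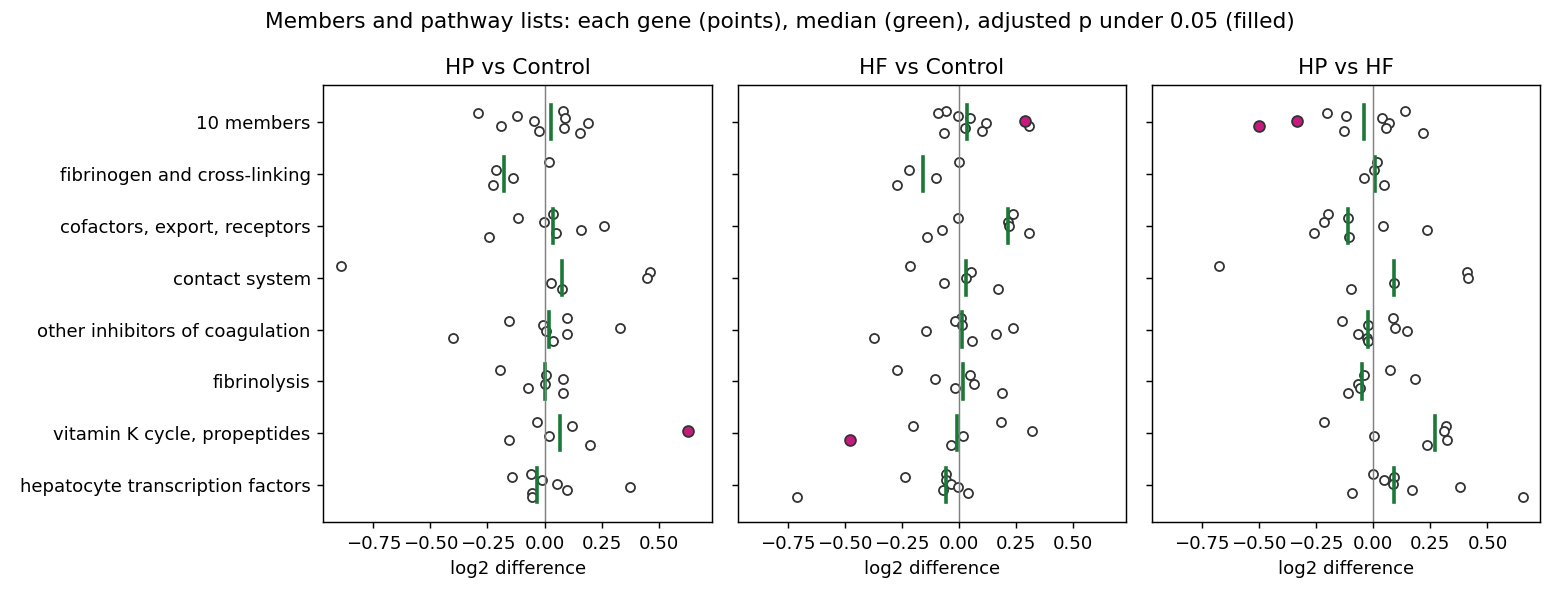
Log2 difference (x axis) of the 10 genes and of the 44 measured genes of the 7 lists in the 3 comparisons, each point 1 gene, with list medians in green and genes with an adjusted p under 0.05 filled. Nqo1 (0.63, HP against Control) and Vkorc1 (-0.48, HF against Control) are the 2 filled points outside the 10 genes.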

How the data were processed

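Two-colour Agilent arrays of 19 rat livers were used. Per the file headers, the authors deposited intensity values of spots and their surroundings from Agilent Feature Extraction (10.5.1.1) and also a matrix of log2 values for 22764 features with a median of 8.20 per array, whose steps are not given in the sources used here. Cy5 held the rat and Cy3 the pool, per the labels. The deposited log2 values served as an alternative.

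Spots whose local background exceeded the signal by more than 50 (34 spots on 5 arrays) were dropped, background was corrected by normexp with an offset of 50, and log2 ratios were loess normalised within arrays (span 0.3). Control and outlier spots were left out and spots of a probe averaged. Of 41012 probes 25292 were kept (Cy5 well above background on at least 6 arrays), named by accession, symbol or synonym through RefSeq. The brightest kept probe stood for a gene, which gave 22088 features. One limma model over 3 diets (R 4.3.3, limma 3.58.1) gave moderated two-sided tests with Benjamini-Hochberg adjustment over all features, called at 0.05. Further probes came from the same model over all kept probes. The fit was tested on simulated data. The labels give separate animals.

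The genes, lists and alternatives were chosen with earlier results of these data known. Named genes are all probes of the 10 genes, the called genes of each list (or its 2 smallest p values if none was called), the 5 genes most like the median of the 10, and the pairs among the 10. Array columns outside the study's samples numbered 0. The number of arrays limits the precision.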

Additional observations from a re-analysis of the deposited data

Results flagged for a closer look

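One liver stood apart from its group in 1 of 36 groups (12 probes in 3 diets). For F10, HF 6 had a log2 ratio of -0.20, the other HF livers lay between -0.37 and -0.33, and the gap was 0.73 of the range of the 6 livers, above the critical value of 0.625. Chance alone flags about 1 in 20 groups. Without HF 6 the F10 difference between HP and HF livers was 0.16 (adjusted p 0.14 by limma).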

How the results depend on the processing

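The calls were few, and each was lost in 1 or more settings. The direction of F9 and F5 between HP and HF livers and of F5 between HF and Control livers held in all 15 alternatives and on leaving out each of 19 rats in turn. No alternative took the dimmer F5 probe alone, which gave -0.0033 between HP and HF livers and -0.02 between HF and Control livers. F9 between HP and HF livers lost its call only with slide as a fixed block, and F5 lost it with Cy5 alone (-0.28), median centring (-0.29) and the mean of a gene's probes. F5 between HF and Control livers kept its call in 7 of 15 alternatives and 6 of 19 omissions. Serpinc1 between HP and HF livers passed with scaling between arrays, median centring, only the 2 diets in the fit, array weights, and without Control 2, Control 6, Control 7 or HP 1. Some uncalled list genes also passed elsewhere. Between HF and Control livers Tfpi passed with array weights (-0.42), and F3 (0.36) and Plau (0.35) with the deposited log2 values. Between HP and Control livers Serpina10 passed with array weights (0.36). Between HP and HF livers Furin passed with scaling and array weights, and Vkorc1 with normexp on every spot, median centring and array weights. All 12 kept probes were well above background on all arrays.

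Members called in HP against Control livers were 0 in every alternative and omission. In HF against Control livers they were 0 with processed signals, Cy5 alone, median centring, no filter, the mean of a gene's probes, slide as a fixed block, and only the 2 diets, and 0 to 2 on leaving out a rat. In HP against HF livers they were 1 with Cy5 alone, the mean of a gene's probes and slide as a fixed block, 3 with scaling, only the 2 diets and array weights, and 2 to 3 on leaving out a rat. Features called in HP against Control livers numbered 90, and 52 with normexp on every spot, 41 with processed signals, 50 with an offset of 10, 46 with Cy5 alone, 31 with median centring, 20 with slide as a fixed block, 34 with only the 2 diets, 232 with array weights, and 18 (without Control 1 or HP 6) to 368 (without Control 7) on leaving out a rat. In HF against Control livers they numbered 804, 442 with slide as a fixed block and 604 to 910 on leaving out a rat. In HP against HF livers they numbered 1549, 343 with slide as a fixed block, 2666 with array weights and 1136 to 2172 on leaving out a rat.

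The labels do not say that the replicate numbers pair the rats. Same-numbered rats of different diets had a mean correlation of -0.0099 over 18 pairs (-0.22 to 0.11) after diet means were removed, against 0.0012 over 102 other pairs (-0.25 to 0.25). With the replicate block 158 features were called in HP against Control livers, 0 members in HF against Control livers, F12 differed by 0.014 between HF and Control livers, and no member call changed other than that of F5. Of the list genes, Nqo1 (0.63) and Vkorc1 (-0.43) lost their calls with it.

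Small uncalled differences changed sign, 24 of 450 values of the 10 genes under the alternatives and 9 of 570 on leaving out a rat, the largest 0.13. In HP against Control livers Proc turned to 0.065 with normexp on every spot, 0.033 with Cy5 alone, 0.070 with median centring and 0.13 with the deposited values, F5 to 0.0011 with Cy5 alone, 0.011 with the deposited values and 0.0016 with array weights, Plg to -0.016 with Cy5 alone and F12 to 0.023 with the deposited values. In HF against Control livers F12 turned to 0.036 with normexp on every spot, 0.0064 with an offset of 10, 0.050 with Cy5 alone, 0.047 with the deposited values and 0.018 with slide as a fixed block. There F10 turned to 0.083 with Cy5 alone and 0.0026 with the deposited values, Serpinc1 to 0.0076 and F2 to -0.079 with Cy5 alone, and Plg to -0.0056 with median centring. In HP against HF livers Plg turned to -0.10 with Cy5 alone and -0.035 with slide as a fixed block, and F12 to 0.0025 with median centring and 0.017 with the mean of its probes. Of the list genes, Plaur in HP against Control livers turned to 0.0071, 0.14, 0.075 and 0.019 with normexp on every spot, processed signals, Cy5 alone and array weights. Fgb in HP against HF livers turned to 0.032, 0.014, 0.10 and 0.071 with normexp on every spot, processed signals, median centring and the deposited values, Serpinf2 to 0.0026 with the mean of its probes, and Kng2l1 in HF against Control livers to 0.00067 with Cy5 alone. On leaving out each rat in turn, F5 ranged from -0.094 to 0.0016, Proc ranged from -0.055 to 0.025, Plaur ranged from -0.11 to 0.0058 in HP against Control livers, F12 ranged from -0.021 to 0.023 and Plg ranged from -0.016 to 0.068 in HF against Control livers, and F2 ranged from -0.0046 to 0.089 and Fgg ranged from -0.0060 to 0.087 in HP against HF livers. The cause of each change was not tested.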

Other observations

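Klkb1, which encodes prekallikrein, lies next to F11 on chromosome 16 with 0 protein-coding genes between them in RefSeq's GRCr8 table. HP 1 and HP 4, the livers with the 2 lowest F11 values (-0.57 and -0.69), also had the 2 lowest Klkb1 values of the 19 livers, -1.91 and -1.85. The other 4 HP livers had Klkb1 values of 0.27, -1.10, -0.33 and -0.06, HF livers lay between -1.22 and 0.92, and Control livers lay between -0.34 and 0.35. HP 1 and HP 4 shared slide 4 with HF 1 (-0.35) and Control 1 (0.31). This pair was looked at after its values were seen, and the part of the slide in it was not tested.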
